A study of Mus musculus with 24 samples.

Results

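The genes described are 33 genes of glucose uptake, glycolysis, lactate handling, glycogen and the pentose phosphate pathway, out of 46078 genes counted in mouse hearts. They were taken from the count table by symbol, from a list of names that was drawn up with earlier results of these data known. They filled 34 lines of the count table, because Pygm also had a copy on a patch scaffold with no reads, which was left out. All 33 were above 0.5 CPM (a count divided by the library's total in M, with totals scaled by TMM, the trimmed mean of log ratios between libraries) in at least 6 libraries, and so were tested among 15456 genes. RNA came from the ventricular apex of 24 male C57BL/6 mice aged 10 weeks, with 6 animals in each of 4 groups. DTR_PBS hearts had an injury made with diphtheria toxin and the vehicle PBS, and WT_PBS hearts had PBS and no toxin. DTR_PYR hearts had the toxin injury and pyridostigmine, a drug that blocks the breakdown of acetylcholine, and WT_PYR hearts had pyridostigmine and no toxin. The labels place the tissue at day 5. DTR commonly stands for the receptor of diphtheria toxin. The sources used here do not give the cells that carried it. All DTR hearts and no WT hearts had the toxin, so genotype and toxin cannot be told apart.

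Glycolysis splits glucose into pyruvate, and pyruvate either enters the mitochondria or is reduced to lactate. The resting adult heart burns mainly fatty acids, and many of its glycolytic steps use a muscle or heart isoform where other tissues use a more widely expressed one: GLUT4 (Slc2a4) and GLUT1 (Slc2a1), the muscle (Pfkm), liver (Pfkl) and platelet (Pfkp) forms of phosphofructokinase, or the heart (Ldhb) and muscle (Ldha) subunits of lactate dehydrogenase. Glycogen is the store from which muscle draws glucose phosphate, and the pentose phosphate pathway makes NADPH and ribose from it. Immune cells and fibroblasts also run these pathways, so a piece of heart gives the sum over all its cells.

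The sequences before the start sites of 3 members are shown because their transcripts behaved differently while each sequence holds the same short motif. Each line gives the 250 bases before the RefSeq start on the plus strand of GRCm38.p6, 5′ to 3′. Capitals mark ACGTG, the core of the site bound by hypoxia-inducible factors, or its reverse complement CACGT, and a run of CACGTG, the E-box bound by factors such as Myc, holds both. The Slc16a3 sequence is chr11:120948817-120949066, that of Pgam1 chr19:41911621-41911870 and that of Ldha chr7:46845554-46845803.
Slc16a3: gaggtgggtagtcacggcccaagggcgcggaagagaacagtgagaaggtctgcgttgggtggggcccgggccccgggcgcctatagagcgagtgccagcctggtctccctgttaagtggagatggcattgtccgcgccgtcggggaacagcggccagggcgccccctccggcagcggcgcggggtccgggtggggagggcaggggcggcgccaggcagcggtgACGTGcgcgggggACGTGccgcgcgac
Pgam1: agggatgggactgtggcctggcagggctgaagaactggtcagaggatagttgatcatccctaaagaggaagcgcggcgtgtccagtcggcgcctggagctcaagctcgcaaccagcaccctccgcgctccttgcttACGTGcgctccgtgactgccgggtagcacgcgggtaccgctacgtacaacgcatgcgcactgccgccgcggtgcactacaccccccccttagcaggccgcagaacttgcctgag
Ldha: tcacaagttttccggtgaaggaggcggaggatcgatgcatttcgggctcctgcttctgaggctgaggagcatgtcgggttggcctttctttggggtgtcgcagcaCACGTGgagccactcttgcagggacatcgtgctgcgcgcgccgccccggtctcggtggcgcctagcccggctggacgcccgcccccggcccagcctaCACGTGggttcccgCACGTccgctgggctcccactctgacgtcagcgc
Slc16a3, the lactate exporter MCT4, had 2 matches and the largest rise among the members in DTR_PBS hearts. Pgam1, the widely expressed phosphoglycerate mutase, had 1 match and rose as well. Ldha had 5 matches in the sequence shown, counted on both strands so that each E-box counts as 2, and did not pass the test in any contrast with TMM scaling. A later RefSeq start of Ldha, with the window chr7:46846832-46847131, had no match. In windows of 300 bases, 250 before and 50 after each start, ACGTG on either strand was found for 18 of the 32 members in the RefSeq table, against 21.8% of its 27025 genes. Members had more start sites each, and by window the share was 44.0% of 50 member windows, against 19.6% of 32851 windows of all genes. CACGTG was found in 10.0% of the member windows, against 7.15% of all windows, and the named consensus of the muscle factor MEF2 in 4.0%, against 3.19%. Of the members called higher in DTR_PBS hearts, Slc16a3, Pgam1, G6pdx and Pfkfb3 had ACGTG in at least 1 window. Pfkp, Pgd and Tkt had none. Of those called lower, Pfkm, Pfkfb2, Pygm, Pygb, Hk2, Aldoa, Pkm and Ugp2 had it in at least 1 window. Pfkl, Pfkfb1, Eno3, Ldhb, Gpi1 and Tpi1 had none, and Slc2a4 had no window to search. A match says only that the letters are there.

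Some library facts bear on all that follows. Total counts were 1.88 to 37.8 M per library, and the members took 0.871% to 1.74% of the counts in DTR_PBS hearts, against 1.34% to 2.12% in WT_PBS hearts, and 1.31% to 1.86% in DTR_PYR hearts, against 1.85% to 2.31% in WT_PYR hearts. The first principal component of log2 CPM over all genes held 44.2% of the variance. On it DTR_PYR 4, 5 and 6 lay at -35.4, -25.6 and -20.9, next to the 12 WT libraries at -57.2 to -35.1, while the other 9 DTR libraries lay at 30.3 to 114. In the same 3 libraries Hbegf, the mouse counterpart of the human toxin receptor gene, had 19.3, 23.3 and 25.8 CPM, against 18.3 to 26.8 CPM in the WT_PBS and WT_PYR libraries together. The tests of members and other pathway genes in DTR_PYR hearts are therefore given with and without them. They were singled out for lying near the WT libraries. In all results without them, calls gained against WT_PYR hearts and likeness to DTR_PBS hearts thus partly follow from that choice. Cardiomyocyte markers were present in every library, though they do not tell the ventricular apex from other parts of the heart. The summed level of 10 cardiomyocyte markers was 26070 to 71877 CPM in DTR_PBS hearts, against 90290 to 94519 CPM in WT_PBS hearts, and 37947 to 84234 CPM in DTR_PYR hearts, against 88342 to 102040 CPM in WT_PYR hearts. In bulk tissue, fewer cells of a type and less RNA per cell cannot be told apart.

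Beside the cardiomyocyte markers, markers of other cell types moved between the groups of the first contrast, in which 42.9% of all genes were called (21.3% higher and 21.6% lower). Of the cardiomyocyte markers 7 of 10 were lower in DTR_PBS than in WT_PBS hearts, as were 5 of 6 endothelial markers (512 to 664 CPM in DTR_PBS hearts, against 878 to 1154 CPM in WT_PBS hearts). All 10 macrophage markers were higher, with a sum of 858 to 2598 CPM in DTR_PBS hearts, against 310 to 447 CPM in WT_PBS hearts. Recruited monocyte markers were higher in 6 of 7 cases (239 to 932 CPM, against 21.4 to 63.8 CPM in WT_PBS hearts), fibroblast markers in 4 of 7 (1864 to 3894 CPM, against 702 to 826 CPM) and neutrophil markers in 3 of 5 (9.61 to 30.6 CPM, against 2.999 to 7.59 CPM). Red cell markers were lower in 4 of the 5 tested (17.9 to 210 CPM, against 52.6 to 745 CPM in WT_PBS hearts), and skeletal muscle markers stood at 2.63 to 4.001 CPM, against 2.999 to 5.31 CPM. Of the 3 skeletal muscle markers tested, 1 was higher and 1 lower. No marker was at 0 in every library of a group. The part of these shifts in the members' changes was not tested.

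In uninjured hearts the muscle and heart isoforms dominated. Divided by the length of their annotated exons, the highest median levels in WT_PBS hearts were those of Aldoa, an aldolase shared by muscle and most other tissues (1351 CPM per kb), Ldhb (969 CPM per kb), Eno3, the muscle enolase (923 CPM per kb), Pgam2, the muscle phosphoglycerate mutase (840 CPM per kb), and Pygm, the muscle glycogen phosphorylase (635 CPM per kb). Pfkm followed at 420 CPM per kb, against 28.3 CPM per kb for Pfkl and 4.30 CPM per kb for Pfkp. At the low end were G6pdx, the entry enzyme of the pentose phosphate pathway (2.75 CPM per kb), Pfkfb3 (2.55), Pfkfb1 (2.29) and Slc16a3 (0.776 CPM per kb). In DTR_PBS hearts Aldoa still had the highest median, at 967 CPM per kb, Ldhb had 405 CPM per kb, and Slc16a3 stood at 5.47 CPM per kb. Exon lengths include all annotated transcripts, so genes with long rare exons, such as Pfkp, come out low on this scale.

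**Figure D1:**
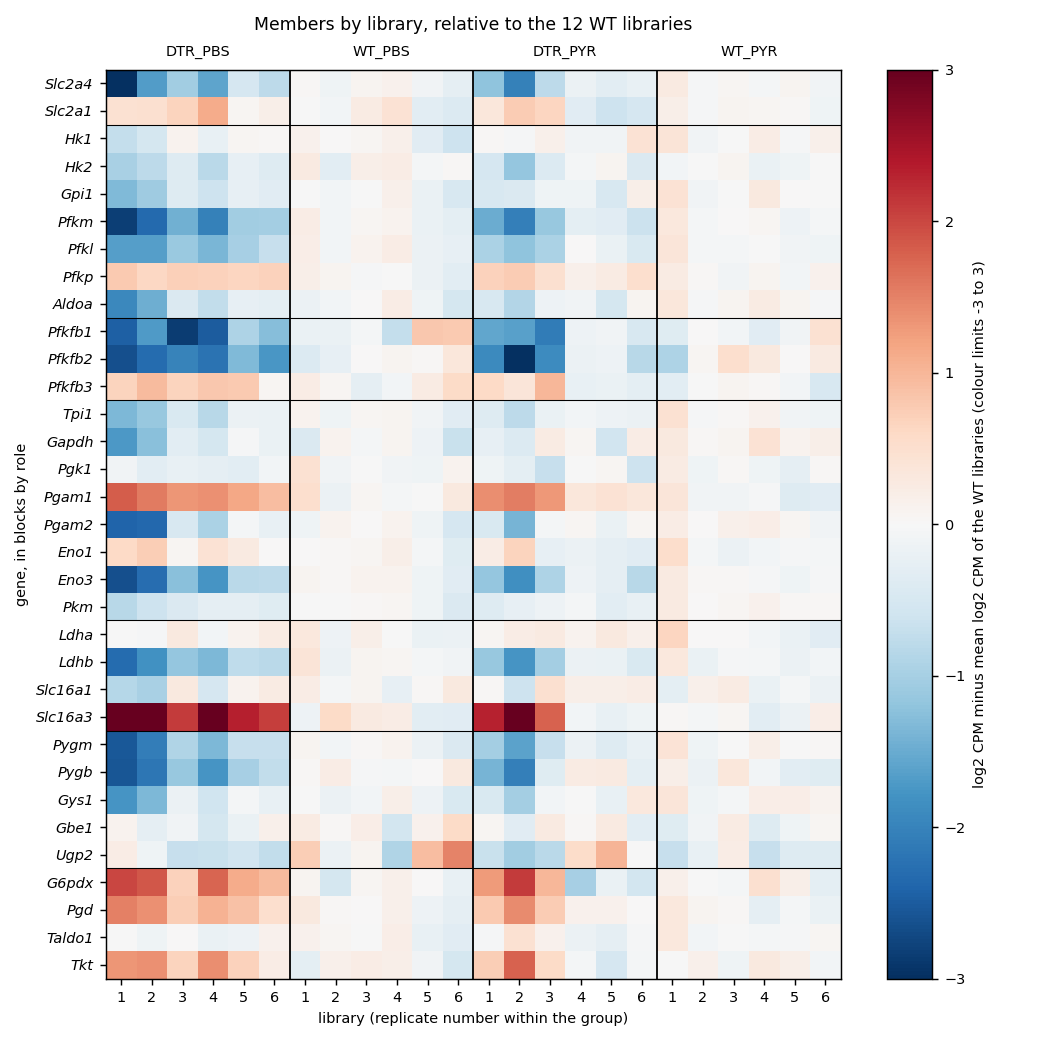
Heat map of the 33 members (rows, in blocks by role) in the 24 libraries (columns, by group), where colour is the log2 CPM of a library minus the mean of the 12 WT libraries. In DTR_PBS 1 to 6 and DTR_PYR 1 to 3, Slc16a3, Pgam1, G6pdx and Pgd are above the WT mean and Pfkm, Pfkfb2, Eno3 and Ldhb below it, while DTR_PYR 4, 5 and 6 have paler colours for most members.

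The comparison of DTR_PBS with WT_PBS hearts shows the members after injury without the drug. By the edgeR quasi-likelihood test with Benjamini-Hochberg adjustment over all genes, 22 of the 33 members passed an adjusted p of 0.05, 7 higher and 15 lower, against 42.9% of all genes called (21.3% higher and 21.6% lower). The libraries of the groups did not overlap for 15 members, 6 higher and 9 lower, against 22.2% of all genes (11.2% higher and 11.0% lower). The median log2 fold change was -0.41 over the members and 0.01 over all genes tested. The falls without overlap were those of GLUT4, the muscle and liver phosphofructokinases, 2 of their regulators, the muscle enolase, the heart lactate dehydrogenase and the glycogen phosphorylases, and the rises without overlap those of the lactate exporter, Pgam1, Pfkp and 3 pentose phosphate enzymes. Scaling by total counts alone moved the median of all genes to 0.39 and that of the members to -0.11, and it called 10 members higher and 9 lower. The 6 TMM falls lost there were those of Hk2, Gpi1, Aldoa, Tpi1, Pkm and Ugp2, while Slc2a1, Eno1 and Ldha were then called higher.

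Of the glucose transporters, the insulin-responsive GLUT4 fell. Slc2a4 (GRCm38 chromosome 11, 69942539 to 69948188, minus strand) had 71.8, 244 and 424 CPM as the lowest, median and highest values in DTR_PBS hearts, against 496, 584 and 652 CPM in WT_PBS hearts. Every DTR_PBS library was below every WT_PBS library. The log2 fold change was -1.20 (SE 0.29), a ratio of 0.435, with an edgeR adjusted p of 0.00192. Slc2a1, the basal transporter GLUT1, had 33.5, 45.1 and 70.1 CPM in DTR_PBS hearts, against 24.2, 31.2 and 43.6 CPM in WT_PBS hearts, and its log2 difference of 0.52 (SE 0.22) did not pass (edgeR adjusted p 0.0509).

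Among the 7 genes of the preparatory steps, 1 was higher, 5 were lower and 1 did not pass. Pfkm, the muscle subunit of phosphofructokinase, the committed step of glycolysis (chromosome 15, 98092589 to 98132447, plus strand), had 198, 433 and 700 CPM as the lowest, median and highest in DTR_PBS hearts, against 1151, 1403 and 1657 CPM in WT_PBS hearts. The groups lay far apart, and the log2 fold change was -1.62 (SE 0.28, edgeR adjusted p 9.21e-05). Pfkl, the liver subunit, had 59.7, 79.4 and 116 CPM in DTR_PBS hearts, against 159, 189 and 218 CPM in WT_PBS hearts, again without overlap, and fell by 1.22 (SE 0.19, edgeR adjusted p 4.43e-05). Pfkp, the platelet subunit (chromosome 13, 6579768 to 6648777, minus strand), went the other way. It had 91.1, 94.7 and 102.0 CPM in DTR_PBS hearts, against 47.5, 57.6 and 65.8 CPM in WT_PBS hearts, and rose by 0.73 (SE 0.12, edgeR adjusted p 4.83e-05). Its 6 DTR_PBS libraries were close together and all above the WT_PBS range. Some reads of Pfkm and Pfkp are uncertain, since 10.7% and 5.58% of their exon bases also belong to other genes and the libraries did not keep strand.

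The hexokinases trap glucose as glucose phosphate. Hk2, the muscle and insulin-responsive form, had 238, 315 and 396 CPM in DTR_PBS hearts, against 379, 505 and 564 CPM in WT_PBS hearts. Its groups overlapped, and its log2 fold change was -0.64 (SE 0.17, edgeR adjusted p 0.00346). Hk1, the general form, had 192, 294 and 338 CPM in DTR_PBS hearts, against 203, 321 and 350 CPM in WT_PBS hearts, a log2 difference of -0.11 (SE 0.16) that did not pass (edgeR adjusted p 0.634). Gpi1, the glucose phosphate isomerase, and Aldoa fell by 0.52 (SE 0.18, edgeR adjusted p 0.0198) and 0.64 (SE 0.23, edgeR adjusted p 0.0296), both with overlap. The Gpi1 call was lost without DTR_PBS 1 or DTR_PBS 2, and that of Aldoa without either of these or WT_PBS 3 or 4.

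All 3 bifunctional regulators, which set the level of fructose 2,6-bisphosphate and through it the rate of phosphofructokinase, passed the test. Pfkfb2, the heart form (chromosome 1, 130689182 to 130729253, minus strand), had 7.28, 10.5 and 17.9 CPM in DTR_PBS hearts, against 33.9, 45.7 and 57.1 CPM in WT_PBS hearts. No libraries overlapped, and the log2 fold change of -1.97 (SE 0.34, edgeR adjusted p 9.50e-05) was the largest fall among the members. Of its exon bases 19.5% are shared with Gm29427 or with Yod1 on the other strand. Pfkfb1, the liver and muscle form, was low throughout, with 1.41, 2.46 and 5.25 CPM in DTR_PBS hearts, against 6.13, 9.20 and 17.6 CPM in WT_PBS hearts, and fell by 1.95 (SE 0.35, edgeR adjusted p 0.000141), without overlap. Pfkfb3, the inducible form with high kinase activity, had 18.1, 28.7 and 33.3 CPM in DTR_PBS hearts, against 14.4, 19.3 and 26.0 CPM in WT_PBS hearts. It overlapped and was higher by 0.52 (SE 0.20, edgeR adjusted p 0.0382), a call lost in 10 of the 19 alternatives tried, 9 of them the removal of any of DTR_PBS 1 to 5 or WT_PBS 1 to 4.

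Of the 8 genes of the payoff steps, 1 was higher, 3 were lower and 4 did not pass. Pgam1 (chromosome 19, 41911871 to 41918664, plus strand), whose sequence is shown above, had 71.8, 96.2 and 133 CPM in DTR_PBS hearts, against 33.7, 38.3 and 53.6 CPM in WT_PBS hearts. Every DTR_PBS library was above every WT_PBS library, and the log2 fold change was 1.26 (SE 0.21, edgeR adjusted p 6.52e-05). Its muscle counterpart Pgam2 had 139, 452 and 710 CPM in DTR_PBS hearts, against 520, 706 and 789 CPM in WT_PBS hearts. DTR_PBS 1 and 2 were far below the WT_PBS range, while DTR_PBS 3, 5 and 6, with 524, 710 and 630 CPM, lay inside it, and the log2 difference of -0.73 (SE 0.30) did not pass (edgeR adjusted p 0.0538).

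Eno3, the muscle enolase (chromosome 11, 70657202 to 70662513, plus strand), had 244, 544 and 893 CPM in DTR_PBS hearts, against 1214, 1606 and 1641 CPM in WT_PBS hearts. It fell without overlap, by 1.41 (SE 0.27, edgeR adjusted p 0.000262). Eno1, the general enolase, had 97.3, 123 and 161 CPM in DTR_PBS hearts, against 74.7, 98.3 and 109 CPM in WT_PBS hearts, a difference of 0.39 (SE 0.17, edgeR adjusted p 0.0636). Tpi1, the triose phosphate isomerase, fell by 0.57 (SE 0.18, edgeR adjusted p 0.0133), and Pkm, the pyruvate kinase whose muscle and fetal splice forms are merged in these counts, fell by 0.37 (SE 0.13, edgeR adjusted p 0.0265), a call lost without DTR_PBS 1, DTR_PBS 2, WT_PBS 3 or WT_PBS 4. Gapdh and Pgk1, the dehydrogenase and the kinase of the steps after Tpi1, did not pass, with log2 differences of -0.41 (SE 0.23, edgeR adjusted p 0.152) and -0.26 (SE 0.14, edgeR adjusted p 0.131). Gapdh is often taken as a level standard, and here it had 527, 1296 and 1690 CPM in DTR_PBS hearts, against 1096, 1626 and 1862 CPM in WT_PBS hearts. Reads of Gapdh, Tpi1, Pgk1 and Aldoa may be split with near-identical pseudogene copies. Other genes share 15.3% of the exon bases of Pkm and 11.5% of those of Gpi1.

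**Figure D2:**
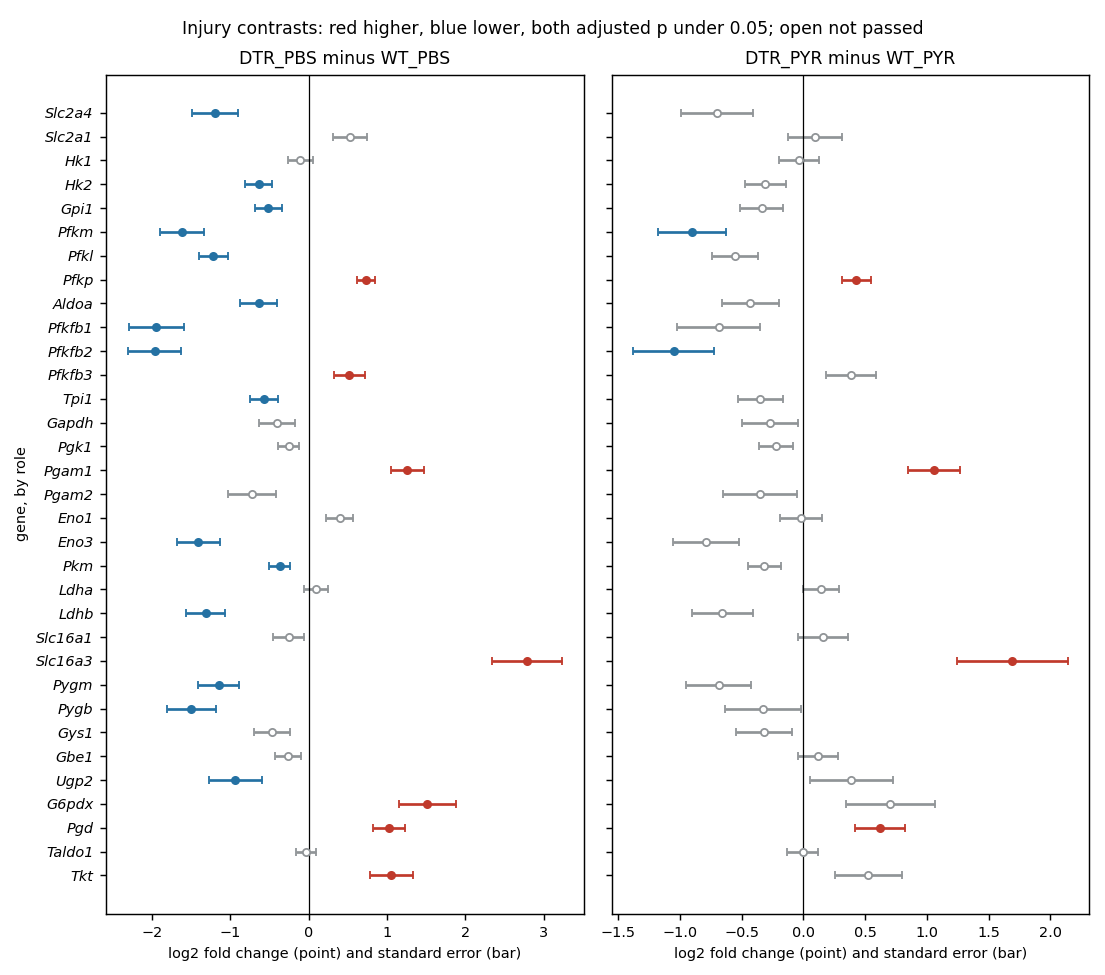
Log2 fold change (points) with its standard error (bars) for each member, ordered by role, in DTR_PBS minus WT_PBS (left) and DTR_PYR minus WT_PYR (right), with filled red or blue points for genes past an adjusted p of 0.05. On the left 7 members are red and 15 blue, and on the right 4 are red and 2 blue; Slc16a3 lies farthest to the right in both panels.

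Lactate genes moved in opposite directions. Slc16a3 (chromosome 11, 120948480 to 120960868, plus strand) had 16.8, 29.1 and 40.9 CPM in DTR_PBS hearts, against 3.15, 4.12 and 5.98 CPM in WT_PBS hearts. The groups did not overlap, and the log2 fold change of 2.79 (SE 0.45, edgeR adjusted p 5.34e-05), a ratio of 6.92, was the largest among the members. Slc16a1, the MCT1 transporter through which the heart takes up lactate, had 125, 216 and 302 CPM in DTR_PBS hearts, against 206, 253 and 298 CPM in WT_PBS hearts, and did not pass (log2 difference -0.26, SE 0.20, edgeR adjusted p 0.319). Ldhb, the heart subunit of lactate dehydrogenase (chromosome 6, 142490249 to 142507957, minus strand), had 306, 636 and 894 CPM in DTR_PBS hearts, against 1338, 1522 and 1990 CPM in WT_PBS hearts. It fell by 1.32 (SE 0.25, edgeR adjusted p 0.00021), with no overlap. Ldha, the muscle subunit (chromosome 7, 46841475 to 46855627, plus strand), had 545, 591 and 706 CPM in DTR_PBS hearts, against 498, 543 and 708 CPM in WT_PBS hearts. The groups covered nearly the same range, and the log2 difference was 0.09 (SE 0.15, edgeR adjusted p 0.653).

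Among the 5 glycogen genes, 3 were lower and 2 did not pass. Pygm, the muscle phosphorylase that breaks glycogen down (chromosome 19, 6384399 to 6398459, plus strand), had 355, 967 and 1293 CPM in DTR_PBS hearts, against 1546, 2045 and 2252 CPM in WT_PBS hearts, and fell by 1.15 (SE 0.26, edgeR adjusted p 0.00113). Pygb, the brain form that is also abundant in heart (chromosome 2, 150786735 to 150831758, plus strand), had 169, 373 and 591 CPM in DTR_PBS hearts, against 948, 1007 and 1213 CPM in WT_PBS hearts, and fell by 1.503 (SE 0.31, edgeR adjusted p 0.000484). Neither gene's groups overlapped. Ugp2, which makes UDP-glucose for glycogen synthesis, was lower by 0.94 (SE 0.34, edgeR adjusted p 0.0265) but varied widely, with 45.1, 49.2 and 87.7 CPM in DTR_PBS hearts, against 40.8, 103 and 211 CPM in WT_PBS hearts, and its call was lost in 7 of 19 alternatives, among them leaving out DTR_PBS 3, 4 or 6 or WT_PBS 5 or 6. Gys1, the muscle glycogen synthase, and Gbe1, the branching enzyme, had log2 differences of -0.47 (SE 0.23, edgeR adjusted p 0.103) and -0.26 (SE 0.17, edgeR adjusted p 0.206).

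In the pentose phosphate pathway 3 of 4 genes were higher. G6pdx, the glucose 6-phosphate dehydrogenase that makes NADPH (chromosome X, 74409483 to 74429194, minus strand), had 13.3, 22.6 and 32.9 CPM in DTR_PBS hearts, against 5.71, 8.48 and 9.20 CPM in WT_PBS hearts, and rose by 1.52 (SE 0.36, edgeR adjusted p 0.00143). Pgd, the next dehydrogenase (chromosome 4, 149149991 to 149166771, minus strand), had 50.2, 69.6 and 102 CPM in DTR_PBS hearts, against 29.6, 36.4 and 43.4 CPM in WT_PBS hearts, and rose by 1.02 (SE 0.20, edgeR adjusted p 0.000341). Tkt, the transketolase that links the pathway back to glycolysis (chromosome 14, 30548359 to 30574722, plus strand), had 48.2, 84.8 and 109 CPM in DTR_PBS hearts, against 28.6, 41.8 and 48.1 CPM in WT_PBS hearts, and rose by 1.06 (SE 0.27, edgeR adjusted p 0.00304). For all 3 the DTR_PBS libraries were above the WT_PBS libraries, narrowly for Tkt. Taldo1, the transaldolase of the same branch, had 70.9, 78.2 and 88.7 CPM in DTR_PBS hearts, against 64.4, 83.3 and 93.9 CPM in WT_PBS hearts, a log2 difference of -0.03 (SE 0.13, edgeR adjusted p 0.854). Of the exon bases of G6pdx 13.6% are shared with Ikbkg on the other strand.

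**Figure D3:**
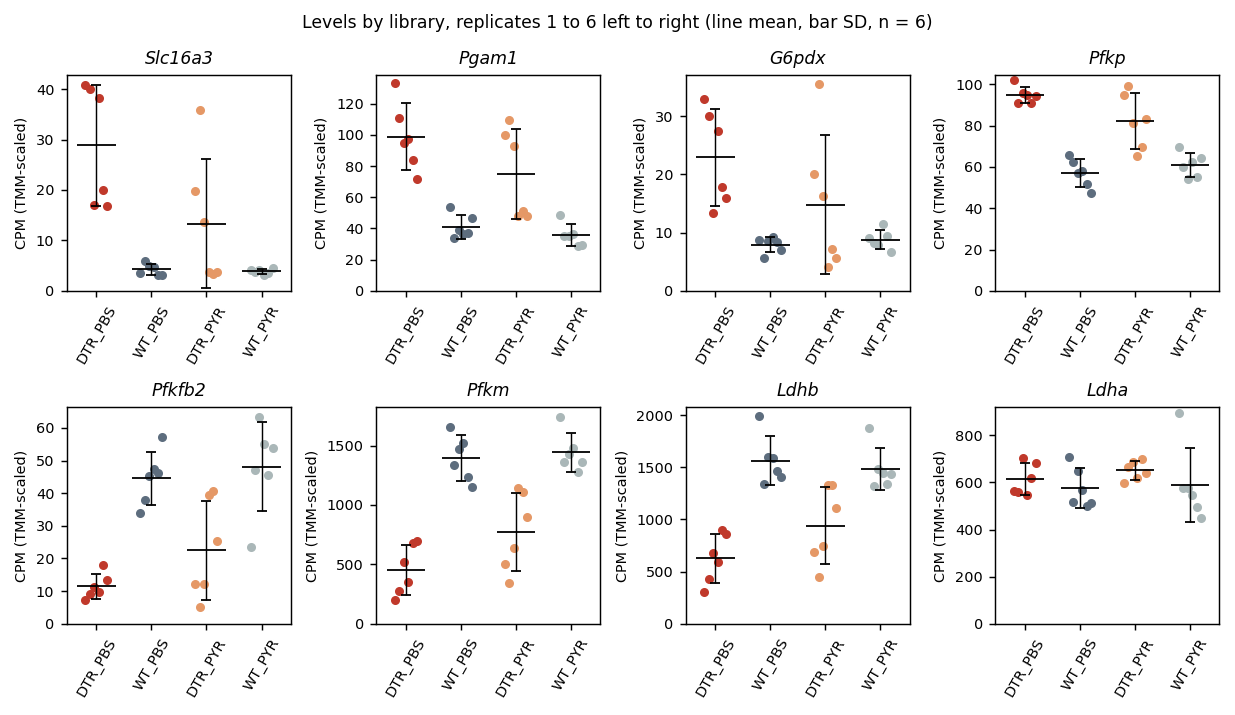
TMM-scaled CPM of 8 members in the 24 libraries, with replicates 1 to 6 from left to right in each group, a line for the mean and a bar for the SD (n = 6). Slc16a3, Pgam1, G6pdx and Pfkp are higher in the DTR_PBS libraries than in all WT_PBS libraries, Pfkfb2, Pfkm and Ldhb are lower, Ldha covers about the same range in each, and DTR_PYR spreads over both ranges.

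The DTR_PBS libraries differed among themselves. DTR_PBS 1, 2 and 4 had 40.9, 40.03 and 38.1 CPM of Slc16a3, against 17.1, 20.005 and 16.8 CPM in DTR_PBS 3, 5 and 6. The same 3 libraries had 198, 278 and 348 CPM of Pfkm, against 519, 680 and 700 CPM in DTR_PBS 3, 5 and 6. The 3 libraries with the most exporter thus had the least muscle phosphofructokinase, a split made after the values were seen. Among DTR_PBS 3, 5 and 6 this order did not hold, since DTR_PBS 5 had more of both than DTR_PBS 3. Their cardiomyocyte marker sums were 26070, 28335 and 39221 CPM, against 64257, 62569 and 71877 CPM in DTR_PBS 3, 5 and 6, and their macrophage marker sums 2598, 2230 and 1610 CPM, against 1167, 1090 and 858 CPM. The part of these marker sums in the members' spread was not tested. Ldha and Pfkp differed little over the same libraries, at 545 to 706 CPM and 91.1 to 102.0 CPM.

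Within each library 1 isoform was then set against another, as the log2 ratio of counts per kb of exon, which needs no scaling between libraries. In each pair the first isoform was the more abundant per kb in WT_PBS hearts. It was a muscle or heart form against a more widely expressed one, except that Slc16a1 to Slc16a3 cannot be read in that way. In DTR_PBS against WT_PBS hearts 9 of the 10 ratios passed an exact two-sided permutation test of 6 against 6 libraries, adjusted over 10 pairs and 4 contrasts (40 comparisons), and all 9 were lower. With the 924 arrangements possible the smallest p the test can give is 0.00216. That p, an adjusted p of 0.00866 by exact permutation, was reached by 7 pairs whose groups did not overlap. The log2 ratio of Slc16a1 to Slc16a3 was 3.17 ± 1.19 in DTR_PBS hearts and 6.19 ± 0.51 in WT_PBS hearts (mean ± SD, n = 6 each), a difference of -3.01, and that of Pfkfb2 to Pfkfb3 was -1.25 ± 0.62 in DTR_PBS hearts and 1.27 ± 0.33 in WT_PBS hearts, a difference of -2.52. For Pfkfb2 and Pfkfb3 the order of the isoforms was turned round: Pfkfb2 made up 21.5% to 43.7% of their sum in DTR_PBS hearts, against 63.4% to 76.6% in WT_PBS hearts.

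The other pairs without overlap kept the muscle or heart form as the more abundant one per kb of exon. For Ldhb and Ldha this order rests on the exon lengths used, 1.57 kb and 3.31 kb. In CPM, not divided by length, the lowest Ldhb value in DTR_PBS hearts was below every Ldha value there. The log2 ratio of Pfkm to Pfkp was 4.11 ± 0.77 in DTR_PBS hearts and 6.61 ± 0.11 in WT_PBS hearts, a difference of -2.50. For Pgam2 to Pgam1 the difference was -2.24, for Eno3 to Eno1 -1.94 and for Slc2a4 to Slc2a1 -1.92. The ratio of Ldhb to Ldha was 1.02 ± 0.52 in DTR_PBS hearts and 2.52 ± 0.09 in WT_PBS hearts, a difference of -1.4996, and Ldhb made up 53.3%, 68.3% and 75.3% of the sum (lowest, median and highest) in DTR_PBS hearts, against 83.9%, 85.4% and 86.1% in WT_PBS hearts. The WT_PBS libraries were tightly grouped and the DTR_PBS libraries spread out below them.

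Pairs with overlap moved less. The ratio of Pfkm to Pfkl was lower by 0.51 (exact permutation, adjusted p 0.0144) and that of Hk2 to Hk1 by 0.54 (exact permutation, adjusted p 0.0266), though Hk2 to Hk1 did not pass when the medians were compared (exact permutation, adjusted p 0.0557). Pygm to Pygb, a pair in which both forms are abundant in heart, was the 1 ratio that did not pass. Both phosphorylases fell, and their ratio was 1.83 ± 0.16 in DTR_PBS hearts and 1.495 ± 0.33 in WT_PBS hearts, a difference of 0.34 (exact permutation, p 0.039, adjusted p 0.0968). A ratio shows unequal change, and does not show which gene changed.

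**Figure D4:**
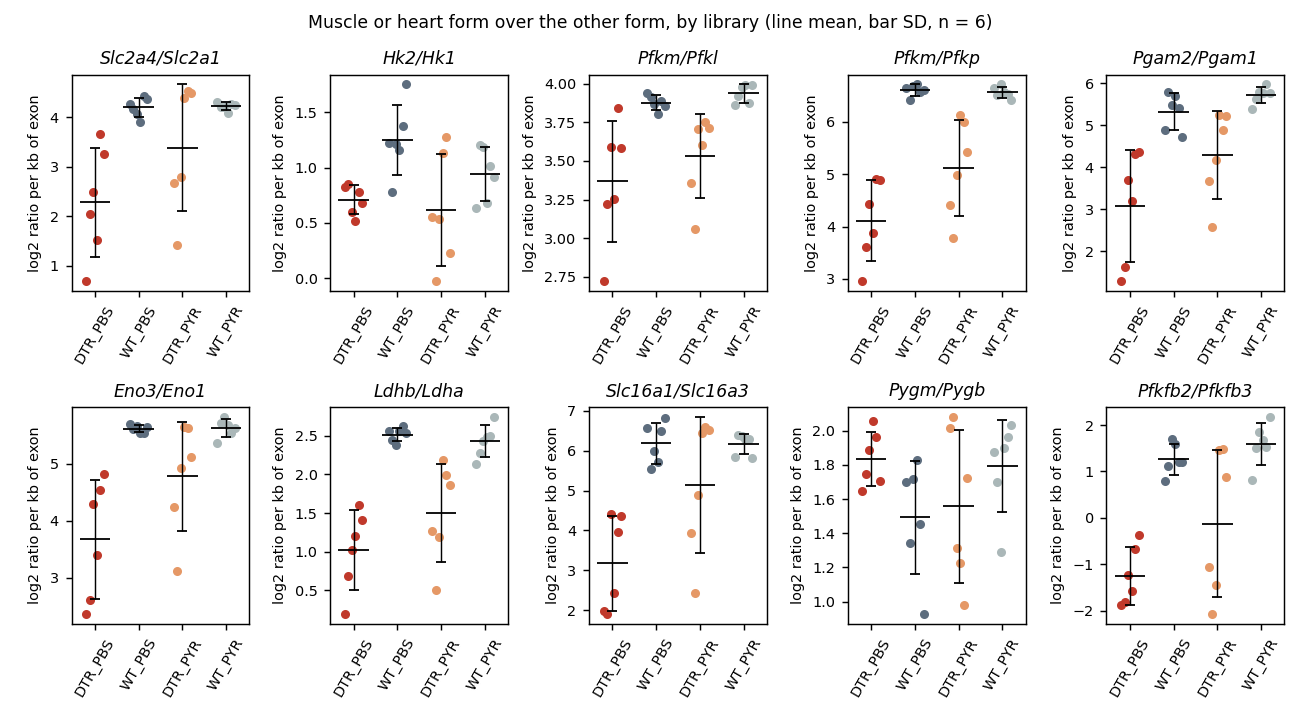
Log2 ratio of the first named isoform to the second, per kb of exon, in each library for 10 pairs, with a line for the mean and a bar for the SD (n = 6). Slc16a1/Slc16a3 and Pygm/Pygb are not a muscle form over a widely expressed one. In DTR_PBS 7 pairs lie wholly below WT_PBS, Pygm/Pygb does not, and in DTR_PYR the libraries spread from the DTR_PBS range to the WT_PYR range for most pairs.

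The comparison of DTR_PYR with WT_PYR hearts shows the same injury in animals given the drug. By the edgeR quasi-likelihood test with Benjamini-Hochberg adjustment, 6 of 33 members passed, 4 higher and 2 lower, against 12.2% of all genes (8.06% higher and 4.17% lower). An unadjusted p under 0.05 was reached by 12 of the 33 members, against 4562 of all 15456 genes. The median log2 fold change was -0.27 over the members and 0.04 over all genes. All 6 had passed with the same sign in DTR_PBS against WT_PBS hearts. That comparison shares no library with this one, but both came from the same fit over all 24 libraries, with a shared estimate of spread. With only the groups of this contrast fitted, Pgam1, Pfkm and Eno3 passed. Slc16a3 had 3.42, 8.71 and 35.8 CPM in DTR_PYR hearts, against 3.22, 3.98 and 4.57 CPM in WT_PYR hearts, and rose by 1.69 (SE 0.45, edgeR adjusted p 0.0176). Its DTR_PYR libraries split into 3 at 13.6 to 35.8 CPM and 3 inside the WT_PYR range.

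Pgam1 had 47.7, 72.1 and 110 CPM in DTR_PYR hearts, against 29.0, 35.3 and 48.6 CPM in WT_PYR hearts, and rose by 1.06 (SE 0.21, edgeR adjusted p 0.00324). Pfkp had 65.1, 82.5 and 99.1 CPM in DTR_PYR hearts, against 54.3, 61.3 and 69.5 CPM in WT_PYR hearts, and rose by 0.43 (SE 0.12, edgeR adjusted p 0.0196). Pgd had 36.0, 49.6 and 95.0 CPM in DTR_PYR hearts, against 29.6, 35.4 and 44.2 CPM in WT_PYR hearts, and rose by 0.62 (SE 0.21, edgeR adjusted p 0.0470). In all 3 genes the low DTR_PYR libraries reached into the WT_PYR range. Pfkm had 341, 770 and 1145 CPM in DTR_PYR hearts, against 1279, 1395 and 1745 CPM in WT_PYR hearts, and fell by 0.90 (SE 0.28, edgeR adjusted p 0.0340), the only one of the 6 without overlap. Pfkfb2 had 5.03, 18.7 and 40.6 CPM in DTR_PYR hearts, against 23.6, 50.5 and 63.4 CPM in WT_PYR hearts, and fell by 1.05 (SE 0.33, edgeR adjusted p 0.0374). Without DTR_PYR 1 or without DTR_PYR 2 only the Pgam1 call was kept, and its adjusted p was at most 0.0252 over the 20 alternatives tried, other tools included. Without DTR_PYR 2 the log2 fold change was 1.10 for Slc16a3 and 0.40 for Pgd, and limma voom gave 0.67 for Slc16a3 (adjusted p 0.379). The Pfkm, Pfkfb2 and Pgd calls were also lost without DTR_PYR 3, WT_PYR 4 or WT_PYR 6, that of Pfkm without WT_PYR 1, and those of Pfkfb2 and Pgd without WT_PYR 2, 3 or 5. The animal tags of the libraries end in U or V. Within U (2 DTR_PYR and 4 WT_PYR libraries) all 6 members passed by edgeR, with log2 fold changes of 2.81 for Slc16a3, 1.17 for Pgd and -1.80 for Pfkm. The U libraries of DTR_PYR hearts were DTR_PYR 1 and DTR_PYR 2, which had helped to select these 6 members, so this was no separate test. Within V (4 DTR_PYR libraries, DTR_PYR 4, 5 and 6 among them, and 2 WT_PYR libraries) the signs were the same but 0 of the 6 passed, with 0.41 for Slc16a3, 0.21 for Pgd and -0.56 for Pfkm and a lowest edgeR adjusted p of 0.956, for Pgam1 (0.75).

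The libraries did not overlap for 5 members, all lower in DTR_PYR hearts, against 5.36% of all genes (2.19% higher and 3.18% lower). These were Pfkm, Slc2a4, Eno3, Pkm and Pygm, of which Pfkm alone passed the test. Eno3 had 431, 831 and 1379 CPM in DTR_PYR hearts, against 1400, 1528 and 1853 CPM in WT_PYR hearts (log2 difference -0.79, SE 0.27, edgeR adjusted p 0.0542). Pygm had 682, 1439 and 1854 CPM in DTR_PYR hearts, against 1908, 2100 and 2748 CPM in WT_PYR hearts (log2 difference -0.69, SE 0.26, edgeR adjusted p 0.0814). Slc2a4 and Pkm had log2 differences of -0.70 (SE 0.29, edgeR adjusted p 0.108) and -0.32 (SE 0.13, edgeR adjusted p 0.111). Other muscle forms overlapped, such as Pgam2, with up to 918 CPM per kb in DTR_PYR hearts, against 813 CPM per kb or more in WT_PYR hearts. Hk2 and Gys1 overlapped too. The 5 members above were named because they did not overlap, so their separation is no further result. Ldhb nearly joined them, with 445, 924 and 1333 CPM in DTR_PYR hearts, against 1323, 1440 and 1873 CPM in WT_PYR hearts (log2 difference -0.66, SE 0.25, edgeR adjusted p 0.0763).

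Slc16a3 and Pgd were above every WT_PYR library in DTR_PYR 1, 2 and 3 and inside the WT_PYR range in DTR_PYR 4, 5 and 6. Pgam1 had 47.7, 51.4 and 48.2 CPM in DTR_PYR 4, 5 and 6, against a median of 35.3 CPM in WT_PYR hearts, and Pfkp had 83.4 CPM in DTR_PYR 6, above every WT_PYR library. G6pdx, which did not pass here, had 20.02, 35.5 and 16.4 CPM in DTR_PYR 1, 2 and 3 and 4.10, 7.21 and 5.61 CPM in DTR_PYR 4, 5 and 6, against 6.68 to 11.4 CPM in WT_PYR hearts. Pfkfb2 had 12.1, 5.03 and 12.1 CPM in the first 3 and 39.5, 40.6 and 25.3 CPM in the other 3, against 23.6 to 63.4 CPM in WT_PYR hearts. Markers of recruited monocytes summed to 390, 875 and 316 CPM in DTR_PYR 1, 2 and 3 and to 36.9, 39.0 and 84.2 CPM in DTR_PYR 4, 5 and 6, against 19.6 to 48.1 CPM in WT_PYR hearts, and the part of this shift in the members' levels was not tested. In the contrast as a whole, 10 of 10 macrophage, 5 of 7 monocyte and 5 of 7 fibroblast markers were higher in DTR_PYR hearts, and 1 of 10 cardiomyocyte and 3 of 6 endothelial markers lower. Of all genes, 8.06% were higher and 4.17% lower. DTR_PYR 2 and 3 were also among the shallowest libraries, with total counts of 2.81 and 2.39 M.

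With DTR_PYR 4, 5 and 6 left out, which was decided after seeing the data, 18 members passed by edgeR, 8 higher and 10 lower, against 32.5% of all genes. Of these, 17 had the same sign and call in DTR_PBS against WT_PBS hearts, and the last was Slc2a1 (0.55, edgeR adjusted p 0.0376). Because the libraries left out were those nearest to WT, the added calls and this match are partly built in and are no separate test. The log2 fold changes were then 2.55 for Slc16a3, 1.496 for Pgam1, 1.45 for G6pdx, 1.06 for Tkt and 1.02 for Pgd. They were -2.29 for Pfkfb2, -1.67 for Pfkfb1, -1.54 for Pfkm, -1.29 for Eno3 and -1.25 for Ldhb. Gpi1, Aldoa, Tpi1, Pkm and Ugp2 were called under PBS only. The interaction of injury and drug without these 3 libraries gave 0 genes by edgeR.

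Of the isoform ratios, 4 of 10 passed in DTR_PYR against WT_PYR hearts, all lower. The log2 ratio of Pfkm to Pfkp was 5.12 ± 0.92 in DTR_PYR hearts and 6.57 ± 0.11 in WT_PYR hearts (mean ± SD, n = 6 each), a difference of -1.44, that of Pgam2 to Pgam1 differed by -1.42 and that of Pfkm to Pfkl by -0.41, each without overlap (exact permutation, adjusted p 0.00866). Ldhb to Ldha was 1.499 ± 0.63 in DTR_PYR hearts and 2.43 ± 0.21 in WT_PYR hearts, a difference of -0.93 (exact permutation, adjusted p 0.0144). Slc16a1 to Slc16a3, the ratio with the largest difference under PBS, differed by -1.03 with wide overlap (exact permutation, p 0.199, adjusted p 0.249). Without DTR_PYR 4, 5 and 6, 8 of the 10 ratios passed (exact permutation, adjusted p 0.028, with 0.0119 as the smallest p that 84 arrangements can give), and Hk2 to Hk1 (adjusted p 0.0529) and Pygm to Pygb (adjusted p 0.988) did not.

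Pyridostigmine itself was compared within injured and within uninjured hearts. In DTR_PYR against DTR_PBS hearts 0 of 33 members passed by edgeR, as did 0% of all genes, and 13 members and 2991 genes had an unadjusted p under 0.05. DESeq2 called 2 members, Pfkl and Pygb, both higher in DTR_PYR hearts, among 242 genes, and limma voom called 4, Pfkl and Pfkfb1 higher and Slc16a3 and G6pdx lower, among 1765 genes. The largest log2 differences were those of Slc16a3 (-1.17, SE 0.42, edgeR adjusted p 0.162), Pygb (1.05, SE 0.31, edgeR adjusted p 0.134), Pfkfb1 (1.05, SE 0.36, edgeR adjusted p 0.150) and Pfkfb2 (1.02, SE 0.34, edgeR adjusted p 0.143). No member's libraries were free of overlap between these groups, against 0.375% of all genes (0.162% higher and 0.214% lower). The median over the members was 0.31, and 0.10 without DTR_PYR 4, 5 and 6, when 0 members and 0 genes passed by edgeR. Without DTR_PYR 2 alone 13 members passed, 8 higher and 5 lower, among 2404 genes. None of the 10 isoform ratios passed, and the smallest adjusted p was 0.0968, for Slc16a1 to Slc16a3 (5.13 ± 1.71 in DTR_PYR hearts and 3.17 ± 1.19 in DTR_PBS hearts, n = 6 each, exact permutation, p 0.0411).

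In WT_PYR against WT_PBS hearts 0 of 33 members and 0% of all genes passed by edgeR, and 1 member and 481 genes had an unadjusted p under 0.05. DESeq2 and limma voom called 0 members as well, with 1 and 0 genes. The 1 member was Ugp2, with 46.9, 57.9 and 88.1 CPM in WT_PYR hearts, against 40.8, 103 and 211 CPM in WT_PBS hearts (log2 difference -0.89, SE 0.34, unadjusted p 0.0138, edgeR adjusted p 0.998). No member's libraries were free of overlap, against 0.278% of all genes (0.0906% higher and 0.188% lower). The median over the members was 0.05, and 0 of 10 isoform ratios passed. The interaction, the drug difference in injured hearts minus that in uninjured hearts, gave 0 members and 0% of all genes by edgeR, with 4 members and 1231 genes at an unadjusted p under 0.05, and DESeq2 and limma voom called 0 members, with 9 and 0 genes. The 4 were Ugp2 (1.33, SE 0.48), Pfkfb1 (1.26, SE 0.48), Pygb (1.17, SE 0.43) and Pfkl (0.66, SE 0.27), with edgeR adjusted p values of 0.569 for Ugp2, Pfkfb1 and Pygb and 0.584 for Pfkl. A p that misses the threshold does not show that the drug left these genes as they were.

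The neighbouring steps of the same pathways were read from 84 further genes, of which 73 passed the filter. In DTR_PBS against WT_PBS hearts 14 were higher and 35 lower by edgeR, which is 19.2% higher and 47.9% lower, against 21.3% and 21.6% of all genes. Their median log2 fold change was -0.41, against 0.01 over all genes. Genes of pyruvate entry into mitochondria were lower in 10 of 14 cases and higher in 1, and those of glycogen handling lower in 11 of 19 and higher in 2. Sugar and lactate transport genes were higher in 2 and lower in 6 of 10 cases, and other glycolytic isoforms higher in 3 and lower in 4 of 8. The remaining pentose phosphate and the hexosamine genes were higher in 4 of 9 cases and lower in 0, and transcription factors that act on glycolytic genes were higher in 2 and lower in 4 of 13. The share called in either direction was 44.4% in the pentose phosphate and hexosamine list and 46.2% among the transcription factors, both near the 42.9% of all genes, and 68.4% to 87.5% in the other 4 lists.

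The 3 largest rises, and 2 of the 3 largest falls, are named for genes whose mean was 1 CPM or more. Stbd1, a protein that binds glycogen, rose by 4.52 (SE 0.86, edgeR adjusted p 0.000213), with a median of 9.57 CPM in DTR_PBS hearts, against 0.346 CPM in WT_PBS hearts. Myc, a growth factor-induced activator of glycolytic genes, rose by 4.40 (SE 0.59, edgeR adjusted p 1.58e-05), with 80.5, 149 and 297 CPM in DTR_PBS hearts, against 3.92, 7.38 and 11.1 CPM in WT_PBS hearts. Hk3, a hexokinase of myeloid cells, rose by 3.06 (SE 0.59, edgeR adjusted p 0.000244). Among the falls were those of Slc2a12, the insulin-responsive transporter GLUT12 (-2.28, SE 0.49, edgeR adjusted p 0.000609), and Epm2a, the glycogen phosphatase laforin (-1.96, SE 0.28, edgeR adjusted p 2.50e-05).

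In DTR_PYR against WT_PYR hearts 4 of the 73 genes were higher and 2 lower by edgeR, or 8.22% in all, against 12.2% of all genes. Myc rose by 3.69 (SE 0.57, edgeR adjusted p 0.00053), with 9.07, 90.2 and 202 CPM in DTR_PYR hearts, against 6.86, 7.30 and 9.51 CPM in WT_PYR hearts. The low end of DTR_PYR again came from DTR_PYR 4 and 5, while DTR_PYR 6 had 46.1 CPM, above every WT_PYR library. Hk3 rose by 2.22 (SE 0.59, edgeR adjusted p 0.0177), and Gfpt2, the entry enzyme of hexosamine synthesis, by 0.90 (SE 0.28, edgeR adjusted p 0.0386). Ldhd, the D-lactate dehydrogenase, fell by 0.90 (SE 0.27, edgeR adjusted p 0.0319) and Epas1, a hypoxia-inducible factor, by 0.52 (SE 0.17, edgeR adjusted p 0.0457). Slc2a6, the transporter GLUT6, rose by 1.84 (SE 0.61, edgeR adjusted p 0.0481), with a median of 1.11 CPM in DTR_PYR hearts, against 0.457 CPM in WT_PYR hearts. Without DTR_PYR 4, 5 and 6, 9 of the 73 genes were higher and 29 lower by edgeR, against 17.2% and 15.3% of all genes. The log2 fold changes were then 4.54 for Myc, 3.08 for Hk3, 2.54 for Slc2a6 and 1.41 for Gfpt2, and -1.57 for Ldhd and -0.84 for Epas1, and all 6 passed. In the drug comparisons and the interaction 0 of these 73 genes passed by edgeR, with 32 (injured), 3 (uninjured) and 15 (interaction) at an unadjusted p under 0.05. Of all 15456 genes, 2991 (injured), 481 (uninjured) and 1231 (interaction) were under that p. Without DTR_PYR 4, 5 and 6, 0 passed in injured hearts or in the interaction, with 1 gene each at an unadjusted p under 0.05.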

How the data were processed

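Gene counts came from the unfiltered HTSeq count table that the authors deposited (46078 genes, 24 libraries). The deposited signal table was used only as a check: its values equalled the filtered deposited counts (15140 genes, all 33 members among them) divided by 1 size factor per library. Per the submitters' processing notes the build was GRCm38 and the tools included HTSeq, edgeR, DESeq, Bowtie2 and TopHat2 2.1.1. What each did, and with which annotation, is not given. Per the labels' protocols the single-end libraries held polyadenylated RNA and did not keep strand.

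Each title carries its own animal tag, so a library was taken as 1 animal, and replicate numbers follow accession order. No 2 libraries of a group agreed within sampling noise (lowest chi-square per gene 7.14). Genes over 0.5 CPM in 6 or more libraries were kept, and their counts were TMM-scaled and fitted with edgeR 4.0.16 (glmQLFit, glmQLFTest, R 4.3.3) over all 24 libraries, with 5 contrasts and Benjamini-Hochberg adjustment over 15456 genes at 0.05. The script was tested on simulated data. SE is the log2 fold change divided by the square root of the F statistic. Isoform ratios added 0.5 to each count and used exon lengths of GENCODE vM21, whose start and end matched for 29 of 33 members; coordinates are the deposited loci with 1 added to the start. Promoters are RefSeq windows on GRCm38.p6, matched by symbol for 32 of 33 members (all but Slc2a4). Alternatives used DESeq2 1.42.0, limma 3.58.1, other scalings, no filter and libraries left out in turn. The members, the other gene lists and the isoform pairs were chosen with earlier results of these data known. Full statistics were set for called members without overlap (up to 8 rises and 8 falls) and for both genes of each pair, and, for other pathway genes, for the 3 largest called rises and falls, of which 1 fall is not reported here. The example libraries compared within DTR_PBS and Gfpt2, Gpi1, Aldoa, Tpi1, Pkm and Ugp2 were chosen after their values were seen.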

Additional observations from a re-analysis of the deposited data

Results flagged for a closer look

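In 8 of the 172 sets of 6 libraries examined, 1 library stood apart by Dixon's test, where chance gives about 1 in 20. Of the 8, 5 were WT_PYR 1. It had 239.9 CPM of Pfkl, against 171 to 186 CPM in the other 5 WT_PYR libraries, 139.8 CPM of Eno1 (against 85.7 to 93.3 CPM), and 101.6 CPM of Taldo1 (against 76.9 to 84.6 CPM). Both lactate dehydrogenase subunits were high in it too, with 896 CPM of Ldha (against 450 to 576 CPM) and 1873 CPM of Ldhb (against 1323 to 1481 CPM). Without WT_PYR 1 the fall of Pfkm in DTR_PYR hearts no longer passed by edgeR.

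WT_PYR 6 had 13.8 CPM of Pfkfb1, against 7.85 to 10.0 CPM in the other 5. WT_PBS 1 had 137.7 CPM of Pgk1, against 91.5 to 108.5 CPM in the other 5. DTR_PYR 2 had 140.3 CPM of Tkt, against 29.2 to 68.3 CPM in the other 5.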

How the results depend on the processing

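Members called in DTR_PYR against WT_PYR hearts numbered 6 by edgeR, but 3 without the filter, 3 with only the groups compared, 11 with DESeq2, 12 with the U or V that ends each animal tag as a term, and 18 without DTR_PYR 4, 5 and 6, when 8 isoform ratios passed in place of 4. Leaving out 1 library gave 1 to 10: 1 without DTR_PYR 1 or DTR_PYR 2, 3 without DTR_PYR 3, WT_PYR 4 or WT_PYR 6, and 10 without DTR_PYR 4. In DTR_PYR against DTR_PBS hearts DESeq2 called 2 and limma voom 4 members in place of 0, and leaving out 1 library gave 0 to 13 (13 without DTR_PYR 2). In DTR_PBS against WT_PBS hearts the range was 18 to 24 around 22, and 0 to 0 for WT_PYR against WT_PBS and the interaction. Ratios passing ranged over 9 to 10, 4 to 6 and, for both drug comparisons, 0 to 0. The cause was not tested. No called member changed sign under any alternative tried. Tags ending in U numbered 2 of 6 in each DTR group and 4 of 6 in each WT group, and DTR_PYR 4, 5 and 6 all ended in V. Within U and within V all called members kept their sign, and 19 (U) and 14 (V) of the 22 under PBS and 6 (U) and 0 (V) of the 6 under pyridostigmine passed. These members had been selected with the same libraries in the fit, and the share of all genes passing within a letter is not given here. No paired analysis was possible because the replicate numbers only follow accession order. Depth, at 1.88 to 37.8 M counts per library, limits the precision of low levels such as Slc16a3 at 3.15 to 5.98 CPM in WT_PBS hearts.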

Other observations

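Pyruvate entry into mitochondria, the step after glycolysis, had 10 of 14 genes lower in DTR_PBS hearts, against 21.6% of all genes. By edgeR the 2 subunits of the pyruvate carrier, Mpc1 (-0.83, SE 0.22, adjusted p 0.0038) and Mpc2 (-0.88, SE 0.24, adjusted p 0.00393), were lower than in WT_PBS hearts. So were Pdha1 (-0.94, SE 0.23, adjusted p 0.00183), Pdhb (-1.10, SE 0.25, adjusted p 0.00102) and Dlat (-0.66, SE 0.19, adjusted p 0.0074), which make up much of the pyruvate dehydrogenase complex. Both a phosphatase that activates the complex, Pdp2 (-1.81, SE 0.30, adjusted p 6.83e-05), and a kinase that restrains it, Pdk1 (-1.11, SE 0.21, adjusted p 0.000262), were lower. The kinase Pdk3 was the 1 gene of this list that was higher (1.27, SE 0.44, adjusted p 0.0224). In DTR_PYR against WT_PYR hearts 0 of these 14 genes passed by edgeR, against 12.2% of all genes. An unadjusted p under 0.05 was reached by 3 of the 14, against 4562 of all 15456 genes. Without DTR_PYR 4, 5 and 6, 9 of the 14 were lower and 0 higher, against 15.3% and 17.2% of all genes, among them Pdha1 (-0.97, SE 0.23, adjusted p 0.00266) and Pdp2 (-1.47, SE 0.36, adjusted p 0.00297).

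Of the other glycogen genes 11 of 19 were lower and 2 higher in DTR_PBS hearts, against 21.6% and 21.3% of all genes, and genes with related roles differed. The phosphorylase kinase subunits Phka1 (-0.97, SE 0.21, adjusted p 0.000785), Phkb (-1.03, SE 0.23, adjusted p 0.000893) and Phkg1 (-1.42, SE 0.40, adjusted p 0.00521), and the glycogen-targeting phosphatase subunit Ppp1r3c (-1.58, SE 0.28, adjusted p 0.000132) fell without overlap by edgeR. Of all genes, 11.0% were lower without overlap. The kinase subunit Phka2 fell with overlap (-0.40, SE 0.16, edgeR adjusted p 0.0435). The kinase subunit Phkg2 (-0.33, SE 0.21, edgeR adjusted p 0.218) and the phosphatase subunit Ppp1r3a (0.49, SE 0.45, edgeR adjusted p 0.406) did not pass. The hexosamine enzyme Gfpt2 rose by 1.45 (SE 0.28, edgeR adjusted p 0.000245), with 23.2, 39.9 and 54.1 CPM in DTR_PBS hearts, against 7.71, 13.4 and 18.7 CPM in WT_PBS hearts. These genes were chosen as examples after their values were seen.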
